A study of Mus musculus with 6 samples.

Results

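Lysosome and autophagy genes are described here in naive CD4+ T cells that were sorted from the pooled lymph nodes of single infant and adult mice. They were chosen by symbol: the subunits and accessory proteins of the vacuolar proton pump (V-ATPase, symbols Atp6v and Atp6ap), the lettered cathepsins, the LAMP membrane glycoproteins, the numbered autophagy genes (Atg), the ATG8 family (Gabarap and Map1lc3) and Beclin 1. The rule took 73 of 52997 gene symbols, and 51 of them had enough counts to enter the test, which covered 11681 genes. Infant libraries came from mice aged 10 days and adult libraries from mice aged 7 weeks, with 3 mice per group and 1 library per mouse. All mice, infant and adult alike, were of the Foxp3-GFP strain on C57BL/6, a reporter strain that marks Foxp3-expressing regulatory T cells by green fluorescence. Each library was made from 1000 double-sorted cells labelled Tconv, taken here to mean conventional T cells, and the labels used here do not name the gating markers.

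Lysosomes are acidic compartments in which the V-ATPase pumps protons, cathepsins and other hydrolases break down proteins, lipids and sugars, and heavily glycosylated LAMP proteins line the membrane. Macroautophagy delivers cytoplasm to them: ATG proteins build a double membrane, conjugate ATG8 proteins to its lipids and close it into an autophagosome that then fuses with the lysosome. In T cells autophagy is known to clear organelles and to be needed for survival of naive cells, and many lysosomal genes are known targets of the transcription factors TFEB and TFE3.

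Library totals ran from 3421253 to 4887371 counts, and 3 counts, the floor used here, corresponded to 0.628 to 0.852 CPM (library-size scaled counts, the unit of level used below), a floor that covers counting error only. Adult replicate 2 stood apart: 36373 genes had a count in it, and 17992 to 21840 in each of the remaining 5 libraries. Over autosomal protein-coding genes too low to test it held 1.85 counts per kb of exon, against 0.186 to 0.349 in the others. The 13 T cell identity genes fixed as markers, Cd4 and Cd3e among them, summed to 10571 to 12085 CPM in adult and 10826 to 11189 CPM in infant libraries. In such sorted bulk samples fewer cells of a type and less RNA per cell cannot be told apart.

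The comparison asked which of these genes differed in RNA level between the ages. Only 2 of the 51 tested genes rose in infant cells at an adjusted p under 0.05, and none fell (edgeR's quasi-likelihood test, Benjamini-Hochberg adjustment over all 11681 genes). The 2 were Ctse, the aspartic protease cathepsin E, and Atp6v1a, the catalytic A subunit of the V-ATPase. Among all tested genes 3.64% differed, 1.52% higher and 2.11% lower in infant cells, so the share of 3.92% that rose here rests on 2 genes. At an unadjusted p under 0.05, 4 of the 51 were higher and 6 lower, against 8.25% and 9.02% of all tested genes. DESeq2 called the same 2 genes, limma-voom called Ctse and not Atp6v1a (limma-voom adjusted p = 0.0526), and neither called a gene lower. The infant and adult values did not overlap for 15 of the 51 (29.4%), 7 higher and 8 lower, beside 22.8% of all tested genes. The median log2 fold change (infant over adult) was −0.051, and that of all tested genes was −0.0017. Summed over the 73 genes the level was 5168, 4935 and 5241 CPM in adult and 4859, 4931 and 5128 CPM in infant libraries. For 45 of the 51 the 95% confidence interval of the change lay wholly inside 2-fold in either direction (88.2%, against 65.6% of all tested genes). Such a share depends on precision as well as on the size of the changes. The median SE was 0.138 for these genes and 0.215 for all tested genes, so the shares do not compare the changes alone.

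**Figure D1:**
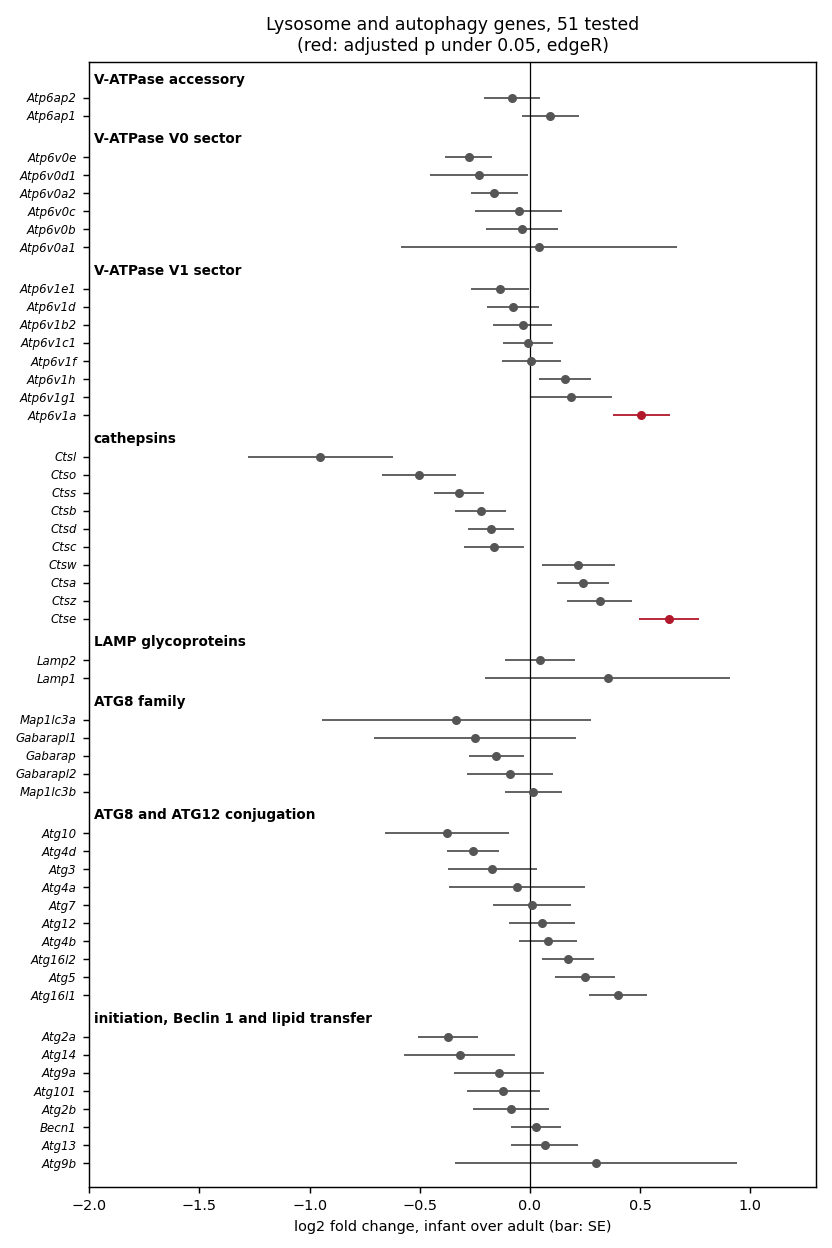
Log2 fold change of each tested lysosome and autophagy gene, infant over adult, with its SE (horizontal bar), by role, from 3 adult and 3 infant libraries. Ctse (0.63) and Atp6v1a (0.51), in red, are the 2 with an adjusted p under 0.05, and Ctsl has the lowest estimate (−0.95).

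Ctse is an endosomal aspartic protease that differs from most cathepsins in not being a resident of mature lysosomes. It had 61.1, 56.5 and 56.6 CPM in the adult libraries and 98.0, 91.7 and 80.2 CPM in the infant libraries. All 3 infant values lay above all 3 adult values, and the lowest infant value belonged to replicate 3. The log2 fold change was 0.63 ± 0.14 (SE), or 1.55-fold, with a 95% interval of 0.34 to 0.93 (edgeR adjusted p = 0.0201). The gene lies on the plus strand of chromosome 1 (131638306 to 131675505, mm10), and 0.758% of the 25-base stretches of its transcripts also occur in transcripts of other genes. Its call was kept without adult replicate 2 (log2 fold change 0.61, edgeR adjusted p = 0.0377) or infant replicate 3 (0.71, 0.0398). It was lost without adult replicate 1 or 3 (edgeR adjusted p = 0.0657 and 0.0791) or infant replicate 1 or 2 (0.105 and 0.117), with log2 fold changes of 0.57 to 0.71 throughout.

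The other cathepsins moved both ways in their estimates, and 9 of the 10 tested did not pass. By length-scaled level (CPM per kb of exon, adult mean) the order was Ctss 283, Ctsd 143, Ctsw 81.7, Ctsa 49.9, Ctsb 43.7, Ctsz 40.8, Ctso 22.7, Ctsc 20.3, Ctse 18.3 and Ctsl 2.39. The length is that of all annotated exons of a gene merged, so such orders depend on the annotation. Ctss (cathepsin S), the cysteine protease that trims the MHC class II invariant chain, had 377, 348 and 427 CPM in adult and 301, 338 and 283 CPM in infant libraries. Its infant values all lay below its adult values (log2 fold change −0.32 ± 0.11, edgeR adjusted p = 0.148). Ctso, a widely expressed cysteine protease, had 109, 137 and 102 CPM in adult and 83.8, 97.7 and 63.8 CPM in infant libraries, also without overlap (−0.50 ± 0.17, adjusted p = 0.121). Ctsl (cathepsin L), a lysosomal endopeptidase of broad specificity, was low, with 17.0, 15.9 and 13.7 CPM in adult and 11.5, 6.29 and 6.04 CPM in infant libraries. Its interval ran from −1.66 to −0.25 on the log2 scale (estimate −0.95 ± 0.33, edgeR adjusted p = 0.140). Of its transcripts' 25-base stretches 29.7% also occur in other genes, mostly in the antisense gene Gm47123, so its level is uncertain.

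Ctsz, an exopeptidase, had 60.4, 65.1 and 51.1 CPM in adult and 67.6, 73.3 and 78.7 CPM in infant libraries, without overlap and without passing (0.32 ± 0.15, edgeR adjusted p = 0.287). Ctsd, the main lysosomal aspartic protease, also did not overlap (336 ± 26.7 CPM in adult and 297 ± 15.7 CPM in infant libraries, mean ± SD, n = 3, −0.18 ± 0.10, edgeR adjusted p = 0.431). It shares 33.4% of its 25-base stretches with other genes, all of them with Gm49369, a protein-coding gene annotated on the same strand that overlaps 34.4% of its exon bases. In all, 6 of the 10 tested cathepsins had groups that did not overlap, 2 higher and 4 lower in infant cells, where 22.8% of all tested genes had such groups. Ctsw, known from cytotoxic lymphocytes, had overlapping values of 142, 118 and 202 CPM in adult and 182, 160 and 198 CPM in infant libraries (0.22 ± 0.17). The remaining 3, Ctsa, Ctsb and Ctsc, had log2 fold changes of 0.24, −0.22 and −0.16 and did not pass.

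**Figure D2:**
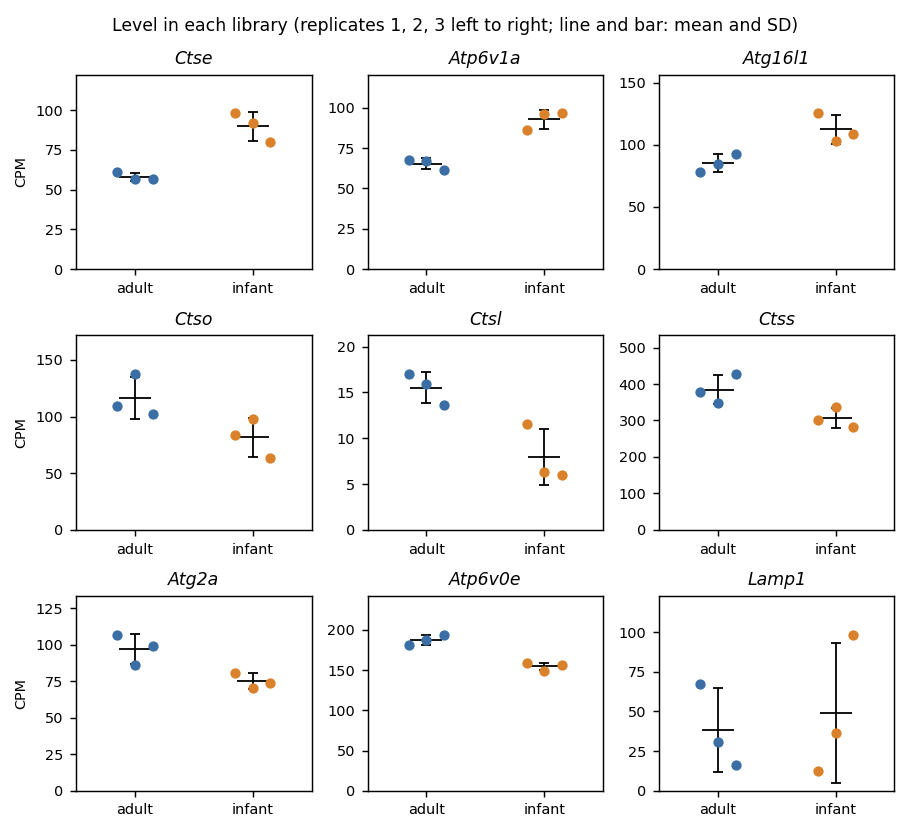
CPM of 9 genes in each library (points), with the mean and SD of 3 libraries per age. Ctse and Atp6v1a, in the first row, separate by age, and Lamp1, in the last panel, spans 16.2 to 67.4 CPM in adult and 12.4 to 98.1 CPM in infant libraries.

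Atp6v1a encodes the subunit of the V1 sector that hydrolyses ATP. It had 67.6, 67.05 and 61.7 CPM in adult and 86.3, 96.0 and 96.6 CPM in infant libraries. The groups did not overlap, and the gap between the highest adult and the lowest infant library was wider than the range within either age. The log2 fold change was 0.51 ± 0.13, or 1.42-fold, with a 95% interval of 0.23 to 0.79 (edgeR adjusted p = 0.0479). The call lay close to the threshold and was lost when any 1 library was left out: adjusted p was 0.121, 0.0608 and 0.153 without adult replicates 1, 2 and 3. Without infant replicates 1, 2 and 3 it was 0.0880, 0.200 and 0.168 (edgeR adjusted p). The estimate stayed between 0.46 and 0.56 in those fits. Beside this gene, 7 tested V1 genes did not pass: Atp6v1b2, Atp6v1c1, Atp6v1d, Atp6v1e1, Atp6v1f, Atp6v1g1 and Atp6v1h had log2 fold changes from −0.14 (Atp6v1e1) to 0.19 (Atp6v1g1). Atp6v1h, a regulatory subunit, also had groups that did not overlap (105 ± 6.91 CPM in adult and 117 ± 2.26 CPM in infant libraries, 0.16 ± 0.12, edgeR adjusted p = 0.547). Estimates for Atp6v1f and Atp6v1g1 are uncertain, because 20.9% and 25.7% of their 25-base stretches also occur in other genes.

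The 6 tested genes of the V0 sector, the membrane part that carries protons, did not pass, and 5 of them had a negative log2 fold change. Atp6v0e, a small hydrophobic subunit, had 181, 188 and 193 CPM in adult and 158, 149 and 156 CPM in infant libraries. Its groups did not overlap (−0.28 ± 0.11, edgeR adjusted p = 0.181). Atp6v0a2, the a2 form of the large subunit, also did not overlap (170.04 ± 4.91 CPM in adult and 152 ± 4.60 CPM in infant libraries, −0.16 ± 0.11, adjusted p = 0.489). Atp6v0d1 (−0.23 ± 0.22), the c-ring gene Atp6v0c (−0.051 ± 0.20) and Atp6v0b (−0.036 ± 0.16) overlapped between ages. Atp6v0a1, the a1 form, was low and varied widely (4.38 ± 3.98 and 4.59 ± 2.07 CPM). The accessory genes overlapped as well: Atp6ap1 had 176 ± 23.4 and 188 ± 22.6 CPM, and Atp6ap2, also known as the prorenin receptor, had 124 ± 14.9 and 117 ± 6.34 CPM in adult and infant libraries.

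Most V-ATPase subunits exist as paired or multiple isoforms, some broadly expressed and others known from kidney, bone or nerve, and for most subunits the broad form carried nearly all of the level at both ages. On the length-scaled level, Atp6v1b2 had 30.2 ± 2.49 CPM per kb in adult and 29.5 ± 4.90 in infant libraries. Its kidney form Atp6v1b1 had at most 0.389 in any library. Atp6v1c1 was at 23.5 ± 0.970 and 23.3 ± 0.423 CPM per kb, and Atp6v1c2 at no more than 1.05. Atp6v0d1 was at 19.8 ± 6.13 and 16.7 ± 0.896 CPM per kb, and Atp6v0d2, known from osteoclasts, at no more than 1.36. The large subunit was the exception in using a pair of forms, Atp6v0a2 and Tcirg1 (the a3 form, named outside the rule). Atp6v0a2 had 25.3 ± 0.730 CPM per kb in adult and 22.6 ± 0.683 in infant libraries, and Tcirg1 15.2 ± 0.898 and 18.6 ± 1.63. Of the summed level of the 4 forms, Tcirg1 made up 34.4% to 39.5% in adult and 41.9% to 46.5% in infant libraries. These shares were computed after the values of both genes had been seen, and Tcirg1 itself did not pass (log2 fold change 0.29 ± 0.13, edgeR adjusted p = 0.298).

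**Figure D3:**
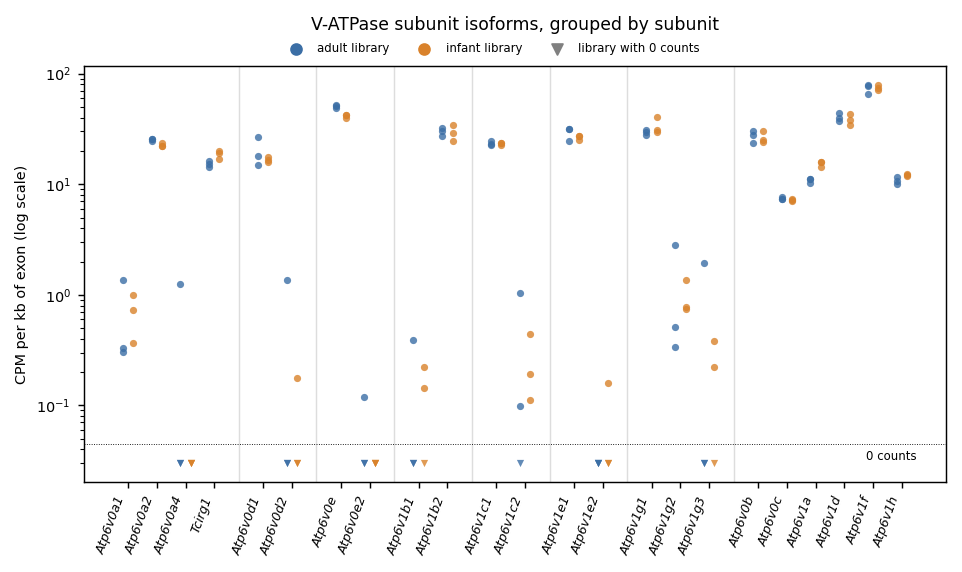
CPM per kb of exon (log scale) of V-ATPase subunit isoforms in the 3 adult and 3 infant libraries, grouped by subunit. Each point is 1 library, and triangles below the dotted line mark libraries with 0 counts. Atp6v1b2 and Atp6v1c1 lie above 20, while Atp6v1b1, Atp6v0a4 and Atp6v0e2 lie at or near 0 in most libraries.

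In all, 22 of the 73 genes did not enter the test, and the highest count of any of them in a library was 29. They included 4 V0 genes, 5 V1 genes, Atp6ap1l, 8 cathepsins, Lamp3, Lamp5, Atg4c and Atg4a-ps, and among the V0 genes the processed pseudogene Atp6v0c-ps1. Adult replicate 2 held 138 of their 356 counts (38.8%), and it had the single highest count for 14 of the 22. All counts of 6 genes were in that library: Atp6v0a4 had 22, Lamp5 had 4, Ctsm had 3, Ctsq had 2, and Atp6v0e2 and Ctsg had 1 each. Ctsk and Atp6v0d2, both known from bone-resorbing osteoclasts, had 13 counts there, with 6 and 2 in the other libraries together. Atp6v1g3 had 13 there and 5 elsewhere, Ctsj 10 and 1, Lamp3 9 and 2, Atp6v1c2 8 and 8, Atp6v1b1 6 and 7, and Atp6ap1l 4 and 1. The density of the 22 genes in that library was 2.54 counts per kb of exon, beside 1.85 over all untested autosomal protein-coding genes. Atp6v1g2, known from neurons, had 29 counts in adult replicate 1, 3 and 6 in the other adult libraries, and 9, 14 and 8 in the infant libraries. Ctsf, a widely expressed cathepsin, had 5, 3 and 7 counts in adult and 7, 13 and 3 in infant libraries. Atg4c had 0, 10 and 11 counts in adult and 10, 5 and 8 in infant libraries. Atg4a-ps had 6, 8 and 13 and 3, 8 and 9, and shares 85.5% of its 25-base stretches with other genes, chiefly Atg4a, which shares 64.1%, so neither level is certain. Ctsh had 5 counts in adult replicate 2 and 8 in infant replicate 2, Atp6v0c-ps1 had 1 count in each of 3 libraries, Atp6v1e2 had 1 count in all, and Ctsr had none.

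Of the LAMP genes, Lamp1 varied widely between mice of the same age and Lamp2 did not. Lamp1 encodes an abundant glycoprotein of the lysosomal membrane that appears on the surface of T cells that release their granules. It had 67.4, 31.0 and 16.2 CPM in adult and 12.4, 36.3 and 98.1 CPM in infant libraries. Adult replicate 1 and infant replicate 3 were high, adult replicate 3 and infant replicate 1 were low, and the ages overlapped fully. The highest library exceeded the lowest 4.15-fold within the adults and 7.94-fold within the infants. The SD within age groups was 1.26 on the log2(CPM + 0.5) scale, the largest of the 51 tested genes, whose median was 0.155. Among adults alone the ratio of highest to lowest was larger in 2 low genes, Atp6v0a1 (4.51-fold) and Atg9b (4.45-fold). Among 2597 tested genes with a mean within 1.5-fold of that of Lamp1, itself included, 2 had an SD that large, and the median was 0.216. Its log2 fold change of 0.35 ± 0.55 (edgeR adjusted p = 0.812) therefore left an interval of −0.83 to 1.54. It was −0.66 ± 0.52 without infant replicate 3 and −0.029 ± 0.58 without adult replicate 3. The gene on the opposite strand that overlaps 9.31% of its exon bases, Grtp1, had 10, 6 and 2 counts in adult and 11, 1 and 2 in infant libraries. Lamp2, a close relative that is also needed for fusion with autophagosomes, had 55.3, 56.3 and 44.7 CPM in adult and 55.3, 55.4 and 50.2 CPM in infant libraries (0.046 ± 0.16).

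**Figure D4:**
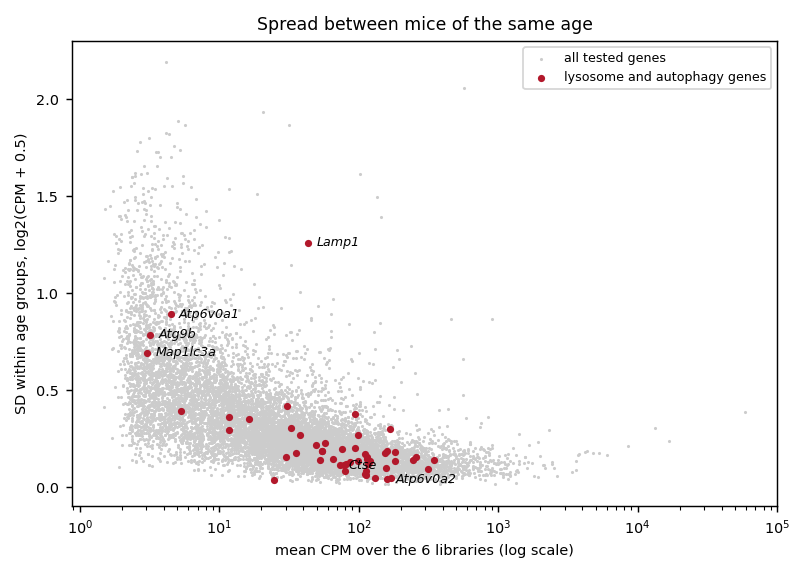
SD within age groups of log2(CPM + 0.5) against the mean CPM over the 6 libraries (log scale). Grey points are the 11681 tested genes and red points the 51 lysosome and autophagy genes. Lamp1 (SD 1.26) lies above nearly all genes of like level, and the other red points above 0.6 are genes under 5 CPM.

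Of the autophagy machinery 23 of 24 genes were tested and none passed (edgeR, DESeq2 and limma-voom), with 1 higher and 2 lower at an unadjusted p under 0.05 in edgeR, beside 8.25% and 9.02% of all tested genes. The ATG8 family coats the autophagosome. Its most abundant member on the length-scaled level was Gabarap (66.4 CPM per kb in adult and 59.7 in infant libraries), followed by Map1lc3b (20.3 and 20.5), Gabarapl2 (13.3 and 12.4), Gabarapl1 (2.89 and 2.41) and Map1lc3a (2.87 and 2.28). In CPM Map1lc3b lay above Gabarap, with means of 152 and 154 beside 122 and 110 in adult and infant libraries. Their order thus rests on the annotated exon length, 7517 bases for Map1lc3b and 1844 for Gabarap. Map1lc3b, the source of the LC3B protein used as an autophagosome marker, had 174, 130.1 and 154 CPM in adult and 139, 168 and 155 CPM in infant libraries. The ages overlapped, and the 95% interval of its change was −0.26 to 0.30 (log2 fold change 0.016 ± 0.13). For Gabarap the interval was −0.42 to 0.11 (−0.15 ± 0.12). The level of Gabarapl1 is uncertain, with 25.9% of its 25-base stretches shared, and those of Map1lc3a and Gabarapl1 rest on few counts.

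Among the enzymes that attach ATG8 and ATG12, Atg16l1 had the largest positive estimate. Its protein brings the ATG12-ATG5 complex to the growing membrane. It had 78.3, 84.7 and 92.9 CPM in adult and 125, 103 and 109 CPM in infant libraries, without overlap (0.40 ± 0.13, edgeR adjusted p = 0.121). Its partner Atg5 did not overlap either (73.8 ± 7.31 CPM in adult and 87.7 ± 5.09 CPM in infant libraries, 0.25 ± 0.13, edgeR adjusted p = 0.381). Atg16l2, a paralog of Atg16l1, was higher without overlap in infant libraries too (0.17 ± 0.12, adjusted p = 0.511). The protease gene Atg4d, which acts on ATG8 proteins, lay the other way, with 118, 132 and 122 CPM in adult and 108, 96.7 and 105 CPM in infant libraries (−0.26 ± 0.12, adjusted p = 0.287). Of the 25-base stretches of Atg4d 17.3% also occur in other genes, mostly in Kri1 on the opposite strand, so its level is uncertain. The E2-like gene Atg3 ranged from 60.7 to 117 CPM within the infants (−0.17 ± 0.20), and the E1-like gene Atg7 was at 49.02 ± 4.01 and 49.2 ± 9.51 CPM (0.0095 ± 0.18). Of the 10 tested genes of this role, 4 had groups that did not overlap, beside 22.8% of all tested genes.

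Of the 8 genes that start the autophagosome and supply its lipids none passed, and their estimates ran from −0.37 to 0.30. Becn1, the Beclin 1 subunit of the lipid kinase complex, had 165, 142 and 161 CPM in adult and 159, 167 and 150.5 CPM in infant libraries (0.026 ± 0.11, 95% interval −0.22 to 0.27). It shares 41.3% of its 25-base stretches with other genes, chiefly Cntd1 on the opposite strand, so its level is uncertain. Atg2a, which encodes a lipid transfer protein, had 106, 86.1 and 98.7 CPM in adult and 80.8, 70.6 and 73.7 CPM in infant libraries, without overlap (−0.37 ± 0.13, edgeR adjusted p = 0.162). Its paralog Atg2b overlapped (−0.088 ± 0.17). The lipid kinase subunit Atg14 had 34.3 ± 12.1 CPM in adult and 27.5 ± 3.19 CPM in infant libraries (−0.32 ± 0.25). Atg9b, a low lipid scramblase gene, had the widest interval (−1.07 to 1.67), and its paralog Atg9a, which shares 33.4% of its 25-base stretches with other genes, was at −0.14 ± 0.20. Atg101 and Atg13, of the kinase complex that starts autophagy, were at −0.12 ± 0.17 and 0.068 ± 0.15.

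The other genes of these pathways were taken from 10 lists with 158 symbols, of which 142 genes were tested. In them 3 genes rose (2.11%, beside 1.52% of all tested genes) and 5 fell (3.52%, beside 2.11%), and the median log2 fold change was −0.099, beside −0.0017. Lgmn, the lysosomal asparaginyl endopeptidase, had 23.5, 19.6 and 19.7 CPM in adult and 52.3, 38.0 and 37.7 CPM in infant libraries (1.03 ± 0.21, edgeR adjusted p = 0.0121). Gaa, the acid alpha-glucosidase that degrades lysosomal glycogen, had 74.9, 70.7 and 73.9 CPM in adult and 44.2, 41.1 and 51.9 CPM in infant libraries (−0.68 ± 0.15, adjusted p = 0.0207). Both separated fully by age, and with the carboxypeptidase Prcp (−0.98 ± 0.23, adjusted p = 0.0323) they were the 3 genes that passed of 39 tested hydrolases. Among 22 membrane proteins and transporters 2 fell, Cln3 (−0.54 ± 0.14, adjusted p = 0.0434), whose loss causes a storage disease, and Npc2 (−0.39 ± 0.10, adjusted p = 0.0445), a soluble cholesterol carrier of the lysosome.

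Of 10 genes of the lysosomal mTORC1 platform, which senses amino acids, the GTPase gene Rragb fell from 11.5 ± 2.43 to 3.12 ± 0.821 CPM (−1.88 ± 0.41, edgeR adjusted p = 0.0188). The mannose 6-phosphate receptor gene Igf2r, which sorts hydrolases to lysosomes, was the 1 of 8 sorting genes that rose (0.68 ± 0.14, adjusted p = 0.0121). Of 3 cystatins, which inhibit cathepsins, Cst7 rose from 12.7 ± 0.595 to 24.8 ± 3.44 CPM (0.96 ± 0.23, adjusted p = 0.0358). The 8 calls were sensitive to single libraries: 1, 5 and 1 of them were kept without adult replicates 1, 2 and 3, and 0, 1 and 4 without infant replicates 1, 2 and 3. Lgmn kept its call in 4 of those 6 fits, Igf2r in 3, Gaa in 2, Prcp, Npc2 and Rragb in 1, and Cln3 and Cst7 in 0. Calls over the whole table, 178 higher and 247 lower with all libraries, moved in the same fits. They were fewest without infant replicate 2 (55 and 84) and most without adult replicate 2 (217 and 271).

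The lists of autophagy initiation (16 tested), autophagy receptors (15), fusion (13), V-ATPase assembly (10) and gene regulators (6) had no gene past the test in edgeR or limma-voom. At an unadjusted p under 0.05 they held 2 higher and 4 lower genes of 60 tested, beside 17.3% of all tested genes in either direction. DESeq2 called Vamp7, a fusion protein, higher (edgeR log2 fold change 0.86 ± 0.24, adjusted p = 0.0637). The most abundant gene of each was Tecpr1 (0.031 ± 0.11), the receptor gene Sqstm1 (−0.14 ± 0.094), Vps16 (−0.18 ± 0.12), Tcirg1 and Foxo1 (0.23 ± 0.15). The list names are broad, so being listed does not make Tecpr1 an initiation gene. Of the regulators of lysosomal genes, Tfeb had 0.48, 10.8 and 4.49 CPM in adult and 4.82, 10.4 and 8.94 CPM in infant libraries, and Tfe3 had 28.4 ± 9.95 and 14.8 ± 4.96 CPM (−0.92 ± 0.31, adjusted p = 0.126). Both overlapped between the ages.

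TFEB and TFE3 bind a palindromic element around an E-box, and the promoters show how many of these genes carry its letters. RefSeq promoters of the GRCm38.p6 build (250 bases before to 50 after the start) were matched by symbol for 56 of the 73 genes. The motifs searched are their own reverse complement, so 1 search covers both strands, and each longer one contains the shorter. The E-box core CACGTG stood in 13 of the 56 genes (23.2%, against 8.09% of all 27025 symbols with a promoter). The form TCACGTGA stood in 6 (10.7%, against 1.12%). The exact 10-base form searched for the CLEAR element, which contains both, stood in 0, against 0.370% of all symbols. Sites that differ from that form at any base were not counted, so the 0 does not show that the 56 genes lack CLEAR elements. A site of each of these 6 genes is shown with the 8 letters in capitals, since they are the sequence these genes share, and the strand and place follow.
Atp6v1a: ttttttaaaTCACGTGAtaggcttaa
Atp6v0d1: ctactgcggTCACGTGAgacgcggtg
Atp6v0e: gcgcgccgaTCACGTGAgcctctgtt
Ctsa: agcaaactgTCACGTGAtgcagatgc
Ctsd: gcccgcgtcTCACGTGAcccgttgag
Atg3: agagtcgagTCACGTGAggccttagg
The sites lie at chr16:44139375-44139400 (minus strand), chr8:105566052-105566077 (minus), chr17:26676389-26676414 (plus), chr2:164833751-164833776 (plus), chr7:142387910-142387935 (minus) and chr16:45158748-45158773 (plus).

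Genes with these letters did not share a direction between the ages. Among the 6, Atp6v1a rose, Ctsa had an estimate of 0.24 ± 0.12, and Atg3, Ctsd, Atp6v0d1 and Atp6v0e had −0.17 to −0.28. The 12 tested genes with the core had a median log2 fold change of −0.10, with 5 positive and 7 negative. The 27 tested genes with a promoter entry and without the core had a median of −0.080, with 10 positive and 17 negative. A match is a description of letters in this window and does not show that a factor binds there. The sites shown for Atp6v1a, Atp6v0e, Ctsa and Ctsd lie inside the annotated genes, downstream of their outermost starts. Which start is used in these cells was not tested. The 250 bases before the start of Lamp1 (chr8:13158911-13159160, plus strand) held 4 cores, shown in capitals because no other promoter of these genes held as many.
Lamp1: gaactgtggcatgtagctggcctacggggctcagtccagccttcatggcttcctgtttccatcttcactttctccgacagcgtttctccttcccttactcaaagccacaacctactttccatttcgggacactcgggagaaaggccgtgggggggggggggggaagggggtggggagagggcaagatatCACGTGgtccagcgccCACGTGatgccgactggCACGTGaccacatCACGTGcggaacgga
The 250 bases before the RefSeq start of Atp6v1a (chr16:44139260-44139509, minus strand), the called gene with a promoter entry, held the 8-base form 1 time. They lie inside the annotated gene, which runs from 44085402 to 44139705.
Atp6v1a: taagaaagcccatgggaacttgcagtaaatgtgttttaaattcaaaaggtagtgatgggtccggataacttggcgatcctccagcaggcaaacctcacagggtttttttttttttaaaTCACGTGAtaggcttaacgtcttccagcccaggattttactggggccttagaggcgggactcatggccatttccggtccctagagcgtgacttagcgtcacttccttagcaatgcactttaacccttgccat
The 17 genes with no entry included Ctse, Atg16l1 and Becn1.

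Markers of other cells were read beside the cathepsins, several of which are abundant in antigen-presenting and cytotoxic cells. The 15 markers of macrophages, monocytes and dendritic cells summed to 11.4, 36.9 and 5.77 CPM in adult and 15.5, 16.9 and 15.7 CPM in infant libraries. The sum was led by Itgam, with 22 to 32 counts in adult and 46 to 57 in infant libraries (0.80 ± 0.35, edgeR adjusted p = 0.257), and in adult replicate 2 also by Itgax (35 counts) and Flt3 (24). Lyz2 had at most 4 counts and Csf1r at most 6 in any library. The 4 MHC class II genes summed to 3.88 to 5.98 CPM in adult libraries, and to 7.75, 56.8 and 2.42 CPM in infant replicates 1, 2 and 3. Infant replicate 2 also held 8 of the 13 counts of Ctsh, with 5 in adult replicate 2 and 0 in the other libraries. Ctss was highest among the infants in that replicate (338 CPM), and the part of such cells in its level was not tested. The 9 cytotoxic markers summed to 83.9 to 106 CPM in adult and 20.3 to 31.6 CPM in infant libraries, mostly from the perforin gene Prf1. Prf1, the 1 of the 9 that entered the test, was called lower in infant cells (−1.86 ± 0.19, edgeR adjusted p = 7.34e-05). Ncr1 had no count, and Nkg7 had 0, 12 and 2 counts in adult and 1, 0 and 0 in infant libraries. Beside this, Ctsw had an estimate of 0.22 and Cst7 rose, both genes known from cytotoxic cells. The 5 regulatory T cell markers summed to 111 to 130 CPM in adult and 89.0 to 96.1 CPM in infant libraries, mostly from Tnfrsf18 (99.7 ± 18.5 and 68.0 ± 3.35 CPM). Foxp3 had 5.60 ± 0.968 CPM in adult and 7.61 ± 1.39 CPM in infant libraries, and Ikzf2 6.33 ± 3.46 and 9.15 ± 0.779 CPM. The part of such cells in these results was not tested.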

How the data were processed

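Polyadenylated RNA of 1000 sorted CD4+ T cells per library was copied from an oligo(dT) primer, amplified, fragmented with a transposase and read in pairs of 25 bases, per the labels' protocols. This protocol marks neither strand nor single molecules, so antisense reads cannot be told apart and counts include PCR copies. STAR 2.5.4, featureCounts and the mm10 build are named in the submitters' processing notes. The authors deposited raw counts per gene symbol, not normalized; their annotation, and how reads with several matches were counted, is not stated in these sources.

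The test was edgeR 4.0.16 on R 4.3.3 (quasi-likelihood F test, filterByExpr with a minimum count of 10, TMM, Benjamini-Hochberg adjustment at 0.05), with age as the only term. The fit was tested on simulated data. Each SE was derived from the log2 fold change and the F statistic, and 95% intervals use the t distribution with the fit's degrees of freedom. Exon lengths, positions, overlaps and shared 25-base stretches came from GENCODE M21 on the same build (all 73 genes matched). Each mouse is 1 replicate per the series design.

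Named genes were those past the test, per role the 3 of smallest p and the 2 of highest length-scaled level, those without overlap and a change of at least 0.5 on the log2 scale, and, in other lists, up to 4 that passed or the most abundant. Other genes named with values were chosen after those values were seen. The genes, lists and rules were chosen with earlier results of these data known. Alternatives were DESeq2 1.42.0, limma-voom (limma 3.58.1), other scalings and filters, a replicate block and leaving out each library.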

Additional observations from a re-analysis of the deposited data

How the results depend on the processing

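The count of genes called over the whole table was 425, and 0 of the lysosome and autophagy genes were called lower in the main analysis or in any of the 13 alternatives. The count called higher was 2, and stayed 2 with DESeq2 size factors, the stricter filter and DESeq2. It was 1 (Ctse) with library totals, without a filter, with limma-voom and with the replicate block, and 0 to 1 when 1 library was left out. The adjusted p of Atp6v1a was 0.0531, 0.0785 and 0.0526 with library totals, no filter and limma-voom, and 0.0876 in the replicate block. Libraries of the same replicate number did not deviate together (correlations of −0.092 to −0.011, beside −0.027 to 0.076 for unlike numbers). Correlations this small, from 3 libraries per age, cannot decide whether the numbers mark pairs. With the replicate block 4 of the 8 calls in the other pathway lists were kept (Gaa, Lgmn, Prcp and Igf2r), 326 genes were called in all, and no other direction changed. Leaving out 1 library gave 139 to 488 genes over the whole table, 0 to 6 in the pathway lists, and a median of −0.11 to −0.011 for the lysosome and autophagy genes. DESeq2 called 622 genes, and in the pathway lists Vamp7 beside the 8. The fit without a filter called 550, and of the pathway lists again 8, with Cln3 and Npc2 lost and Tfe3 and Vamp7 gained. Without adult replicate 2 the 6 pathway calls were 5 of the 8 and Nagpa. The number of lysosome and autophagy genes without overlap was 12 in place of 15 with library totals or without a filter.

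Of 389 values of 30 named genes under the alternatives, 19 changed sign, all when 1 library was left out and all for genes that did not pass. The lowest and highest log2 fold changes over the 6 such fits were −0.42 and 0.049 for Atg3, −0.0041 and 0.20 for Atp6ap1, −0.16 and 0.0077 for Atp6ap2, −0.15 and 0.041 for Atp6v0b, −0.41 and 0.035 for Atp6v0d1, −0.16 and 0.0022 for Atp6v1d, −0.077 and 0.058 for Atp6v1f, −0.036 and 0.072 for Becn1, −0.47 and 0.075 for Gabarapl1, −0.66 and 1.07 for Lamp1, −0.058 and 0.10 for Lamp2, −0.61 and 0.11 for Map1lc3a and −0.084 and 0.12 for Map1lc3b. Those of Lamp1 turned to −0.66 without infant replicate 3 and −0.029 without adult replicate 3. The cause was not tested. Genes under 5 CPM, such as Map1lc3a, Atg9b and Atp6v0a1, have SEs of 0.61 to 0.64. Their intervals reached past 2-fold, so a change of that size is not excluded for them.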
